A study of Mus musculus with 11 samples.

Results

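The 10 genes described here carry the G1 checkpoint and the core of the p53 pathway: the inhibitors Cdkn1a, Cdkn1b, Cdkn2c and Cdkn2d, the pocket protein gene Rb1, Trp53 and Mdm2, and the G1 cyclin and kinase genes Ccnd1, Cdk4 and Cdk6. They were chosen by name for these roles, with earlier results of these data known. All 10 of the 10 names were among the 14272 genes with deposited values, so a filter on low values removed none of them. Cdkn2a and Cdkn2b, which belong to the same pathways, also had values and are described beside them.

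Progress through G1 depends on D-type cyclins that activate Cdk4 and Cdk6, which phosphorylate the RB protein and so release E2F factors to switch on S phase genes. Inhibitors of the INK4 family (Cdkn2a to Cdkn2d) bind Cdk4 and Cdk6, and inhibitors of the CIP/KIP family (Cdkn1a and Cdkn1b) act on several cyclin-kinase pairs. The p53 protein induces Cdkn1a and Mdm2 among many other genes, Mdm2 marks p53 for degradation, and the ARF product of Cdkn2a restrains Mdm2. The CDKN2A locus is among the best known melanoma susceptibility loci.

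RNA was sequenced from cultures of 4 mouse cell lines that model melanoma progression. The melan-a line is a nonmalignant, spontaneously immortalized melanocyte line with epithelial morphology, and its medium contained the phorbol ester PMA at 200 nM. The 4C, 4C11- and 4C11+ lines were derived from melan-a through repeated blockade of anchorage and were grown without PMA, and all 4 lines received 5% serum. The 4C and 4C11- lines are mesenchymal-like, 4C11- and 4C11+ form tumors, and 4C11+ has epithelial morphology and is metastatic.

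Each derived line had 3 libraries (replicates 1 to 3), and melan-a had 2 (replicates 2 and 3). Libraries of a line came from cultures of that line, so each stage of the model rests on 1 line, and the effect of PMA cannot be told apart from that of the line in any comparison with melan-a. Values are given as log2 CPM, that is, read counts scaled to a common library size. All 11 libraries share 1 highest value, as after quantile normalization, so the values do not follow from the counts by scaling alone. A depth recovered from them, here from the value at 40 reads, is therefore approximate. In melan-a replicate 2 the value at 20 reads gave 3.85 M and that at 60 reads 3.32 M. The depth recovered from the values was 3.5 and 5.82 M reads in melan-a replicates 2 and 3, and 6.51, 7.08 and 5.67 M in 4C replicates 1 to 3. It was 4.58, 7.42 and 6.69 M in 4C11- and 4.19, 4.07 and 5.47 M in 4C11+. Depth limits the precision of low values, and counting error is all that such a depth covers.

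Replicate 1 of 4C11- stood apart from its line, with a Pearson correlation across genes of 0.924 with replicate 2 and 0.888 with replicate 3, against 0.971 between the latter pair. Replicate 3 of 4C11+ correlated at 0.963 and 0.955 with the other libraries of its line, which correlated with each other at 0.981. In 4C, replicate 1 correlated at 0.958 and 0.948 with the other libraries, which correlated with each other at 0.974. The melan-a libraries correlated at 0.907, and with 2 libraries neither can be said to stand apart. Genes are not independent replicates, so these values describe the libraries only. Every library was left out in turn, and 4C11- replicate 1 and 4C11+ replicate 3 were also left out together, a pair chosen after seeing the data because both lay apart from their lines for several of the 10 genes.

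The summed level of melanocyte markers separated the lines by morphology. Of 10 listed markers 9 had values (Ednrb did not), and the log2 of their summed level was 10.94 and 13.17 in melan-a and 13.73, 13.46 and 13.61 in 4C11+. It was 3.11, 1.98 and 2.77 in 4C and 3.68, 2.55 and 2.09 in 4C11-, where 3 to 6 of the 9 markers had at most 3 reads. The most abundant marker was Sox10 or Tyrp1 in melan-a and Pmel or Dct in 4C11+. Tyr, the rate-limiting enzyme of melanin synthesis, was near the detection limit in melan-a, at -0.25 and 1.29, so a defining marker was nearly absent from that line. In limma all 9 markers were higher in 4C11+ than in 4C11-, 9 of 9 were also higher than in 4C, and 2 were higher and 1 was lower than in melan-a. All 9 were lower in 4C than in melan-a, and 8 were lower in 4C11- than in melan-a.

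The summed level of fibroblast markers was lowest in 4C11+. With 6 of 10 genes present, the log2 of their summed level was 11.11 and 8.89 in melan-a, 11.45, 11.60 and 11.73 in 4C, 11.66, 11.27 and 11.36 in 4C11-, and 6.85, 6.82 and 6.97 in 4C11+. In 4C11+ against 4C11- limma called 5 of the 6 lower and 1 higher. Against melan-a it called 2 lower and 0 higher, and the list median was 0.57. In 4C and in 4C11- against melan-a it called 4 higher and 0 lower, with list medians of 3.51 and 3.44. Fn1 was the most abundant in melan-a and 4C11+. Col1a1 was the most abundant in 4C and 4C11- and low elsewhere, at 1.35 and 1.48 in melan-a and 2.16, 1.78 and 1.32 in 4C11+. Only Krt10 and Cdh1 of 10 keratinocyte markers had values, and Cdh1, the epithelial cadherin, stayed at or under 1.36 in every library, those of epithelial morphology included. Krt10 was lower in 4C11+ than in 4C11- (-3.09, adjusted p = 0.000507, limma), 4C (-2.73, 0.00114) and melan-a (-3.75, 0.000848). In 4C11+ replicates 2 and 3 both genes had at most 3 reads. Cdh1 was lower in 4C than in melan-a (-2.20, adjusted p = 0.0469, limma), a call that ended without 4C11+ replicate 3. Of 8 immune markers Cd68 and Csf1r had values, with a log2 summed level of 6.37 in melan-a replicate 2 and of 1.96 to 3.11 in the other 10 libraries. These markers move with several of the results, and their part in the results was not tested. In bulk RNA, fewer cells expressing a gene and less of its RNA per cell cannot be told apart.

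The larger differences among the 10 genes separated 4C11+ from the other lines. In 4C11+ against 4C11-, the comparison of the tumor lines, Cdkn1a, Mdm2 and Cdkn2d were higher and Trp53 and Ccnd1 were lower, so 3 of 10 rose and 2 fell. A gene is called here when its limma p adjusted over all 14272 genes is under 0.05, and by this rule 31.1% of all genes were called, 15.6% higher and 15.4% lower. The median log2 difference was 0.30 for the 10 genes and 0.12 for all genes. In 4C11+ against 4C, Cdkn1a, Mdm2 and Cdkn2d rose and Trp53 and Cdk6 fell, again 3 and 2 of 10, where 31.7% of all genes were called, 17.1% higher and 14.6% lower. The medians were 0.09 for the 10 genes and 0.08 for all genes. In 4C11+ against melan-a, Cdkn1a and Mdm2 rose and Cdkn1b fell, 2 and 1 of 10, beside 15.9% of all genes called, 8.39% higher and 7.52% lower. Here the medians were -0.01 and 0.03.

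Calls between the earlier stages of the model were fewer. Unadjusted limma p was under 0.05 for 5 of the 10 genes in 4C against melan-a, beside 3944 of all genes. It was so for 2 of the 10 in 4C11- against melan-a, beside 3732, and for 5 in 4C11+ against 4C11-, beside 5964. Cdkn1b alone of the 10 was called in 4C against melan-a, lower in 4C, where 15.2% of all genes were called, 7.64% higher and 7.55% lower, and the medians were -0.32 for the 10 genes and -0.06 for all genes. The counts higher and lower there became 1 and 0 with a replicate block (15.9% of all genes called) or only the lines compared (10.4%). With no mean-variance trend they became 0 and 0 (13.9%). Cdkn1b was also the 1 gene called in 4C11- against melan-a, again lower, beside 13.6% of all genes, 7.55% higher and 6.05% lower, with medians of -0.11 and -0.07. In 4C11- against 4C limma called 0 of the 10 genes, and 0 had an unadjusted p under 0.05. Of all genes 1.67% were called there, 1.26% higher and 0.406% lower, and 1926 had an unadjusted p under 0.05. The medians were 0.15 for the 10 genes and 0.01 for all genes.

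The contrast of mesenchymal-like lines (4C and 4C11-) with epithelial lines (melan-a and 4C11+) called 6 of the 10 genes, with Trp53 and Cdk6 higher and Cdkn1a, Cdkn1b, Cdkn2d and Mdm2 lower in the mesenchymal-like lines. Of all genes 29.7% were called, 14.3% higher and 15.3% lower, and the medians were -0.45 for the 10 genes and -0.09 for all genes. Trp53 was the only one of these 6 called genes whose libraries did not overlap between the morphologies. Cdkn1a and Mdm2 were high in 4C11+ only, and melan-a lay near 4C and 4C11-, so the contrast averages unlike lines. Without both 4C11- replicate 1 and 4C11+ replicate 3, an alternative chosen after seeing the data, the counts of the 10 genes called higher and lower became 3 and 3 in 4C11+ against 4C11-, beside 18.8% and 16.9% of all genes under the same alternative. They became 3 and 3 against 4C, beside 21.2% and 18.7%, and 2 and 3 against melan-a, beside 12.1% and 11.5%. For 4C and for 4C11- against melan-a they became 2 and 1, beside 9.59% and 10% and beside 7.32% and 7.77%, and the counts of the other comparisons did not change. In the 3 comparisons of 4C11+ with another line the shares of all genes thus rose as well. Without 4C replicate 1 alone the counts became 3 and 1 in 4C11+ against 4C, beside 31.3% of all genes called, and 0 and 0 in 4C against melan-a, beside 13.2%, and the others did not change.

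Some counts of the 10 genes moved further with a single library left out. In 4C11+ against 4C11- they became 2 and 1 without 4C11- replicate 2 (23.1% of all genes called) or 3 (26.7%) or 4C11+ replicate 2 (21.7%). Without 4C11+ replicate 3 they became 2 and 3 in 4C11+ against melan-a (16.3%), and without melan-a replicate 2 they became 1 and 3 in the contrast of morphologies (28.7%). In 4C against melan-a they became 0 and 0 without melan-a replicate 2 (13.1%), 4C11- replicate 2 (12.9%) or 4C11+ replicate 1 (12.7%) or 2 (13.1%). They became 1 and 2 there without 4C11- replicate 1 (18.7%), and 1 and 1 without 4C11- replicate 3 (15.1%) or 4C11+ replicate 3 (14.8%). In 4C11- against melan-a they became 1 and 1 without 4C11- replicate 1 (14.7%) or 4C11+ replicate 3 (13.1%). In 4C11+ against melan-a they became 2 and 0 without 4C11+ replicate 1 (7.63%) or 2 (8.02%). In 4C11+ against 4C11- they became 3 and 1 without 4C11+ replicate 1 (20.9%). In 4C11+ against 4C they became 3 and 1 without 4C replicate 2 (21.9%) or 4C11+ replicate 1 (21.8%) or 2 (21.9%). They became 3 and 3 there without 4C11+ replicate 3 (31.4%).

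**Figure D1:**
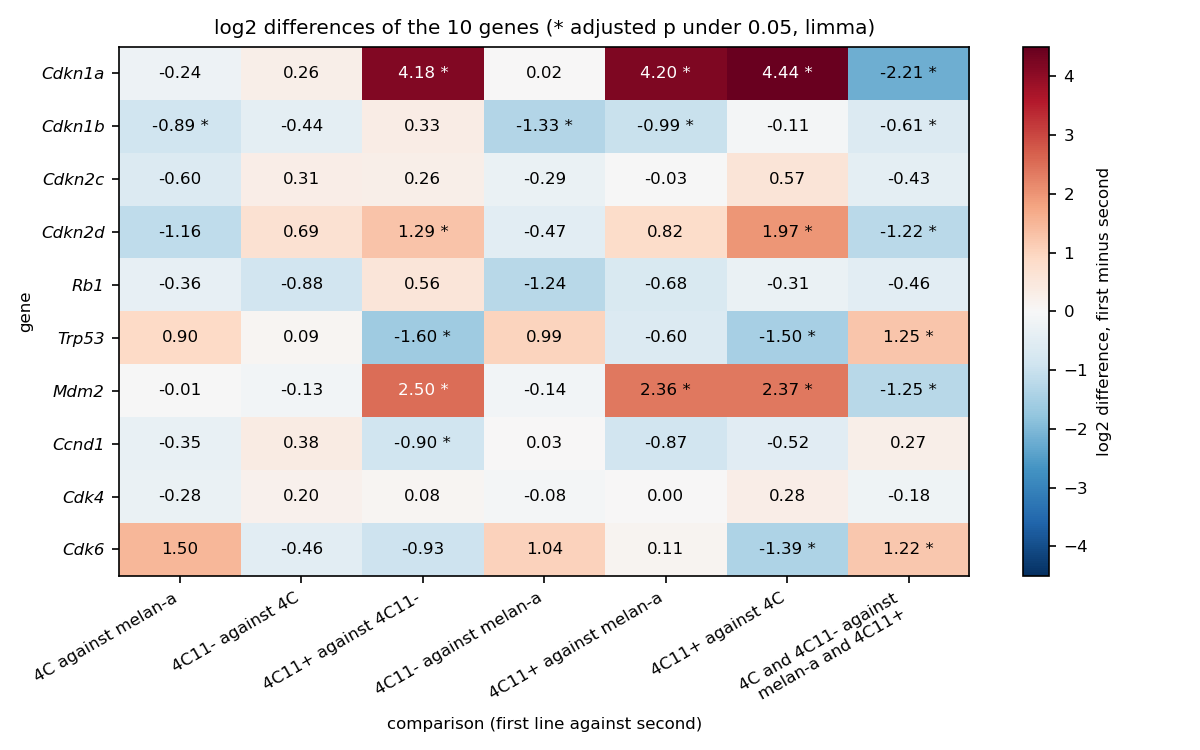
log2 difference of each of the 10 genes (vertical axis) in each of the 7 comparisons (horizontal axis), first line minus second, with an asterisk where limma's adjusted p was under 0.05. The strongest colors are those of Cdkn1a and Mdm2 in the 3 comparisons of 4C11+ with another line.

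Cdkn1a encodes p21, the CIP/KIP inhibitor best known as a p53 target. The gene (ENSMUSG00000023067) lies at chr17:29090976-29100727 of build GRCm38. Its value was 4.45 and 2.09 in melan-a, 3.31, 2.85 and 2.92 in 4C, 4.29, 3.0 and 2.58 in 4C11-, and 7.48, 7.46 and 7.46 in 4C11+. Every 4C11+ library lay above every other library, and the 4C11+ libraries hardly differed, whereas melan-a, 4C and 4C11- overlapped. The level in 4C11+ was 18.1-fold that in 4C11- (log2 difference 4.18 ± 0.56, SE; limma adjusted p = 0.000164). It was 21.7-fold that in 4C (adjusted p = 9.65e-05, limma) and 18.4-fold that in melan-a (4.2 ± 0.62, adjusted p = 0.00108, limma). The difference from melan-a was 5.38 without melan-a replicate 2 and 3.02 without replicate 3, and the call held in both cases. None of the 3 comparisons among melan-a, 4C and 4C11- was called, with log2 differences of -0.24, 0.26 and 0.02 for 4C against melan-a, 4C11- against 4C and 4C11- against melan-a. In the contrast of morphologies Cdkn1a was lower in the mesenchymal-like lines by a log2 difference of -2.21 (adjusted p = 0.00179, limma), which was -1.62 without melan-a replicate 2 and -2.80 without replicate 3.

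**Figure D2:**
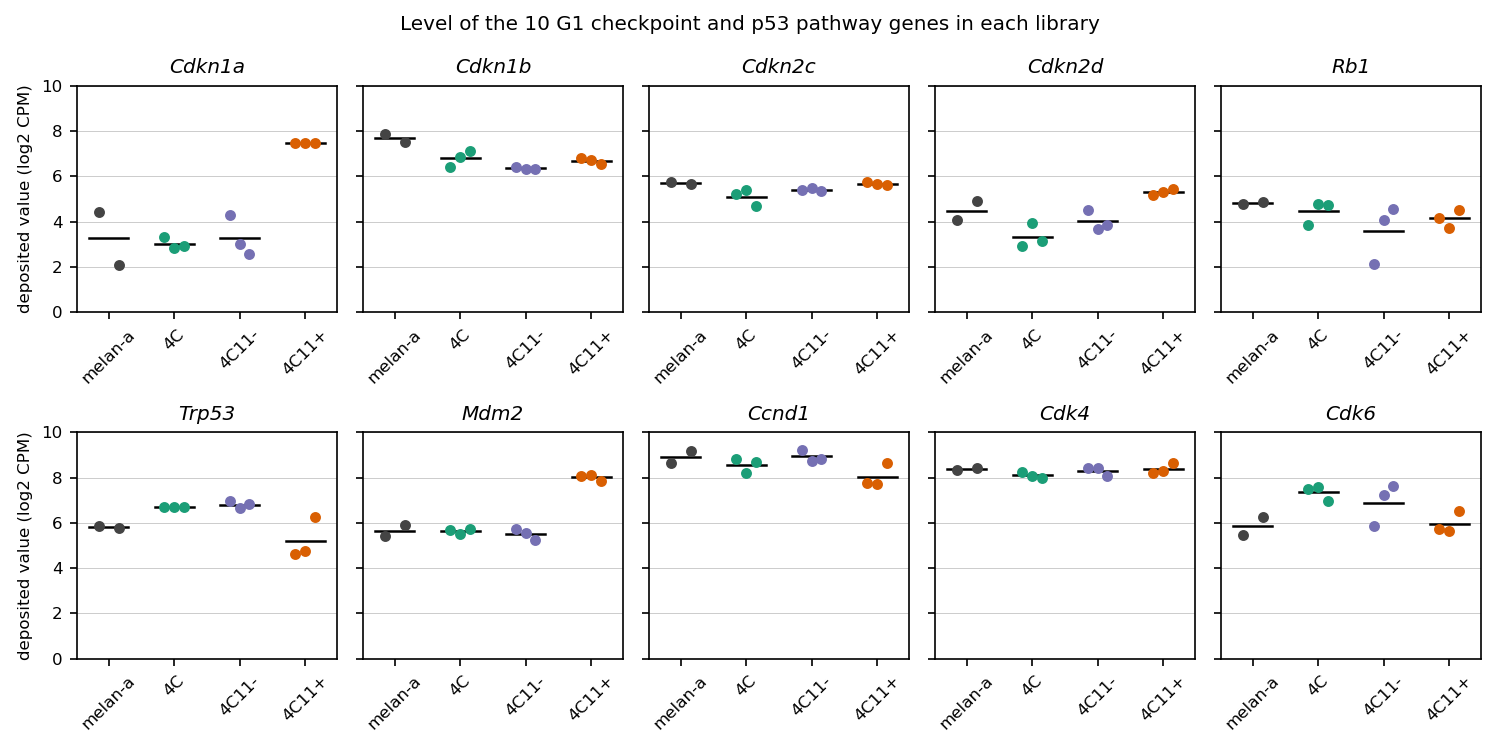
Deposited value (log2 CPM, vertical axis) of each of the 10 genes in each library, with 1 point per library, lines along the horizontal axis and a bar at the mean of each line. The 4C11+ libraries lie above all others for Cdkn1a (7.46 to 7.48) and Mdm2 (7.87 to 8.14).

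Because Cdkn1a and some listed p53 target genes moved together in 4C11+, the windows before their start sites were searched for the p53 response element consensus, a palindromic motif of 20 letters, with at most 1 letter off and on both strands. RefSeq promoter windows of 300 bases, 250 before to 50 after the start (build GRCm38.p6), held a match in 29 of 32851 cases, 0.0883%. Of the 10 genes 8 had a window, Rb1 and Ccnd1 did not, and 1 of their 10 windows matched, that of Cdkn1a; the other Cdkn1a window was 5 letters off. The only Mdm2 window was also 5 letters off. Sequence outside the windows, such as that further into a gene, was not searched. Of the 36 windows of listed p53 targets 2 matched, those of Ccng1 and Rps27l, and no window matched among the other G1/S genes (32 windows), the p53 regulators (22) or the E2F targets (23). The matching stretches follow up to the annotated start of the gene, 5′ to 3′ on its strand, with the match of 19 of 20 letters in capitals. The Cdkn1a stretch is chr17:29090729-29090975 on the plus strand, with the match at chr17:29090928-29090947. The Ccng1 stretch is chr11:40755312-40755536 on the minus strand, with the match at chr11:40755462-40755481, and for Rps27l the match alone is printed, chr9:66946296-66946315 on the plus strand, which lies inside the annotated gene. A match is a description of letters, and no binding was measured.
Cdkn1a: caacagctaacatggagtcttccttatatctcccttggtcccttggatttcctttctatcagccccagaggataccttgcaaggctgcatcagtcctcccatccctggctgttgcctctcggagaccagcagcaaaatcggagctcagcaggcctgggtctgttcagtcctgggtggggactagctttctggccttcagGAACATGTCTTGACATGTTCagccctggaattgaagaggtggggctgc
Ccng1: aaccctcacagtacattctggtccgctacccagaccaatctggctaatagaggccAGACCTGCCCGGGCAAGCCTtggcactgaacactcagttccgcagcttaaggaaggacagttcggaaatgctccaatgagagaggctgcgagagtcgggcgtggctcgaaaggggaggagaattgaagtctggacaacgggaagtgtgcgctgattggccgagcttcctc
Rps27l: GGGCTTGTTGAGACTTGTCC

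Cdkn1b encodes p27, the CIP/KIP inhibitor that accumulates in resting cells. Its value was 7.88 and 7.52 in melan-a, 6.44, 6.85 and 7.13 in 4C, 6.42, 6.33 and 6.35 in 4C11-, and 6.83, 6.71 and 6.56 in 4C11+. Both melan-a libraries lay above all 9 libraries of the derived lines, and 4C overlapped with 4C11+ but not with 4C11-. The level in 4C11- was 2.51-fold below that in melan-a (log2 difference -1.33 ± 0.24, SE; limma adjusted p = 0.00313), a call that held without any 1 library. The differences were -0.89 in 4C (adjusted p = 0.0297) and -0.99 in 4C11+ (adjusted p = 0.0185) against melan-a in limma. The 4C call ended without melan-a replicate 2 (-0.71, limma adjusted p = 0.167), without 4C replicate 1 (-0.70, 0.0796) or 4C replicate 2 (-0.91, 0.0767), and, with the difference unmoved, without 4C11- replicate 2 (0.051) or 4C11+ replicate 1 or 2 (0.0509 each). It also ended in a limma fit with no mean-variance trend (adjusted p = 0.0572), with a replicate block (-0.86, 0.0526) and in a fit of only the lines compared (0.112). The 4C11+ call ended without melan-a replicate 2 (-0.81, limma adjusted p = 0.133) or 4C11+ replicate 1 (-1.06, 0.0506) or 2 (-1.0, 0.0621). Differences among the derived lines were -0.44 for 4C11- against 4C, 0.33 for 4C11+ against 4C11- and -0.11 for 4C11+ against 4C, and limma called none of them. The contrast of morphologies gave -0.61 (adjusted p = 0.0147, limma), and -0.52 without melan-a replicate 2 (adjusted p = 0.055, limma).

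Cdkn2c encodes p18 of the INK4 family. It ranged from 5.68 to 5.75 in melan-a, from 4.70 to 5.40 in 4C, from 5.37 to 5.48 in 4C11- and from 5.63 to 5.77 in 4C11+. All 6 libraries of 4C and 4C11- lay below all 5 of melan-a and 4C11+, but limma called none of its 7 comparisons. Between the morphologies the difference was -0.43 (95% interval -0.81 to -0.06, adjusted p = 0.0813, limma). The most extreme differences were -0.60 for 4C against melan-a (95% interval -1.16 to -0.04, adjusted p = 0.15, limma) and 0.57 for 4C11+ against 4C (0.07 to 1.07, adjusted p = 0.0783).

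Cdkn2d, which encodes p19 of the INK4 family, was highest in 4C11+. Its value was 4.08 and 4.91 in melan-a, 2.92, 3.92 and 3.16 in 4C, 4.53, 3.68 and 3.86 in 4C11-, and 5.16, 5.31 and 5.46 in 4C11+. The 4C11+ libraries lay above all others, by a small margin from melan-a replicate 3, and 4C overlapped with 4C11-. The level in 4C11+ was 3.93-fold that in 4C (log2 difference 1.97 ± 0.36, SE; limma adjusted p = 0.00137) and 2.44-fold that in 4C11- (1.29 ± 0.36, adjusted p = 0.0171). The latter call ended without 4C11- replicate 2 (1.11, limma adjusted p = 0.0731) or replicate 3 (1.2, 0.0511) and without 4C11+ replicate 2 (1.29, 0.0537). Against melan-a the difference in 4C11+ was 0.82 (adjusted p = 0.191, limma). The difference of 4C from melan-a was -1.16 (adjusted p = 0.0747, limma), and this was called without 4C replicate 2 (-1.45, 0.0487) or 4C11- replicate 1 (0.0456). The contrast of morphologies gave -1.22 (adjusted p = 0.00459, limma), with overlap between the groups.

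Cdkn2a, which encodes p16 and, from another reading frame, ARF, was nearly undetected in 4C11+. Its value was 7.36 and 6.59 in melan-a, 6.57, 6.32 and 6.81 in 4C, and 7.90, 7.13 and 6.87 in 4C11-, against 1, 0 and 0 reads in the 4C11+ libraries. The gene was thus well above the detection limit in all 8 libraries of the other lines. In limma the log2 difference of 4C11+ was -9.21 from 4C11- (adjusted p = 1.13e-07), -8.47 from 4C (adjusted p = 1.95e-07) and -8.88 from melan-a (adjusted p = 1.21e-06). These sizes rest on the values deposited for 0 and 1 read, and without 4C11+ replicate 1, the library with the read, they were -9.81, -9.08 and -9.49. The first was -8.57 without both 4C11- replicate 1 and 4C11+ replicate 3. With each 4C11+ library set to its value at 3 reads instead, the level was 155-fold lower than in 4C11-, 93.3-fold lower than in 4C and 124-fold lower than in melan-a. The 1 read over the 13.7 M reads of the 3 libraries is 0.0728 CPM, and the mean deposited level was 165 CPM in 4C11-, 95.7 in 4C and 130 in melan-a. The depth was itself recovered from the deposited values, so both sides of their ratio carry the authors' normalization. The depth is approximate, and so is the ratio. It was 2267 for 4C11- (95% exact Poisson interval of the 1 read, 407 to 89537), 1314 for 4C (236 to 51898) and within 321 to 70563 for melan-a, and the intervals cover the counting error of that read only. No comparison among the other 3 lines was called, the most extreme being 0.73 for 4C11- against 4C (adjusted p = 0.572, limma).

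Cdkn2b, which encodes the INK4 inhibitor p15, lies beside Cdkn2a and was also undetected in 4C11+. Its value was 5.26 and 3.89 in melan-a, 4.61, 4.54 and 4.86 in 4C, and 5.64, 5.04 and 4.78 in 4C11-, and all 3 libraries of 4C11+ had 0 reads. The other 3 lines overlapped with each other and were not told apart by limma. With a floor of 3 reads in each 4C11+ library, Cdkn2b was at least 35.0-fold lower in 4C11+ than in 4C11- (limma adjusted p = 1.05e-07), at least 23.5-fold lower than in melan-a and at least 25-fold lower than in 4C. The bound against melan-a was 14.6-fold without melan-a replicate 2 and 37.6-fold without replicate 3, and both fits called the gene (limma adjusted p = 1.24e-05 and 3.17e-06).

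Within 3 Mb on either side of Cdkn2a on chromosome 4, 19 genes had values, and 4 adjacent ones had at most 1 read in any 4C11+ library. These are Cdkn2a (chr4:89274471-89294653), Cdkn2b (chr4:89306299-89311039) and the transcripts Gm12609 (chr4:89381957-89399880) and Gm12610 (chr4:89421848-89463487), and the last 2 and Mtap are named after their values were seen. Gm12609 had 0 reads in each 4C11+ library and 10 to 43 reads in the other 8, and was at least 5.42-fold lower in 4C11+ than in 4C11- (limma adjusted p = 7.19e-06), 3.41-fold lower than in melan-a (0.000186) and 2.33-fold lower than in 4C (6.17e-05). Gm12610 had 0 reads in each 4C11+ library and 3 to 42 reads in the others, and was at least 3.60-fold lower than in 4C11-. Against melan-a its bound was 2.79-fold, 4.35-fold without melan-a replicate 2 and 1.79-fold without replicate 3. In 4C it had 3, 13 and 6 reads, a mean level no higher than that of 3 reads in 4C11+, so a difference from 4C was not detectable at this depth, although limma called it from the deposited values (adjusted p = 0.0136). Mtap, a methionine salvage gene at chr4:89137122-89181081 on the other side of Cdkn2a, was expressed in every line, at 8.0 and 8.22 in melan-a, 7.47, 7.19 and 6.97 in 4C, 7.86, 7.71 and 8.04 in 4C11-, and 8.40, 8.42 and 8.49 in 4C11+. Its mean was highest in 4C11+, by 1.23 over 4C (adjusted p = 0.000449, limma), by 0.57 over 4C11- (0.0406) and by 0.33 over melan-a (0.317, not called). The call against 4C11- ended with no trend (limma adjusted p = 0.0817) and without 4C replicate 2, 4C11- replicate 1 or 2, or any 1 of the 4C11+ libraries (0.0603 to 0.148). Beyond these 4 genes the next with values, the pseudogene Gm12669, had 7, 11 and 7 reads in 4C11+. Low counts in 4C11+ also occurred elsewhere in the window, as in Adamtsl1 with 1, 1 and 0 reads. The DNA of these lines was not measured, so whether the genes are present in 4C11+ was not tested.

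**Figure D3:**
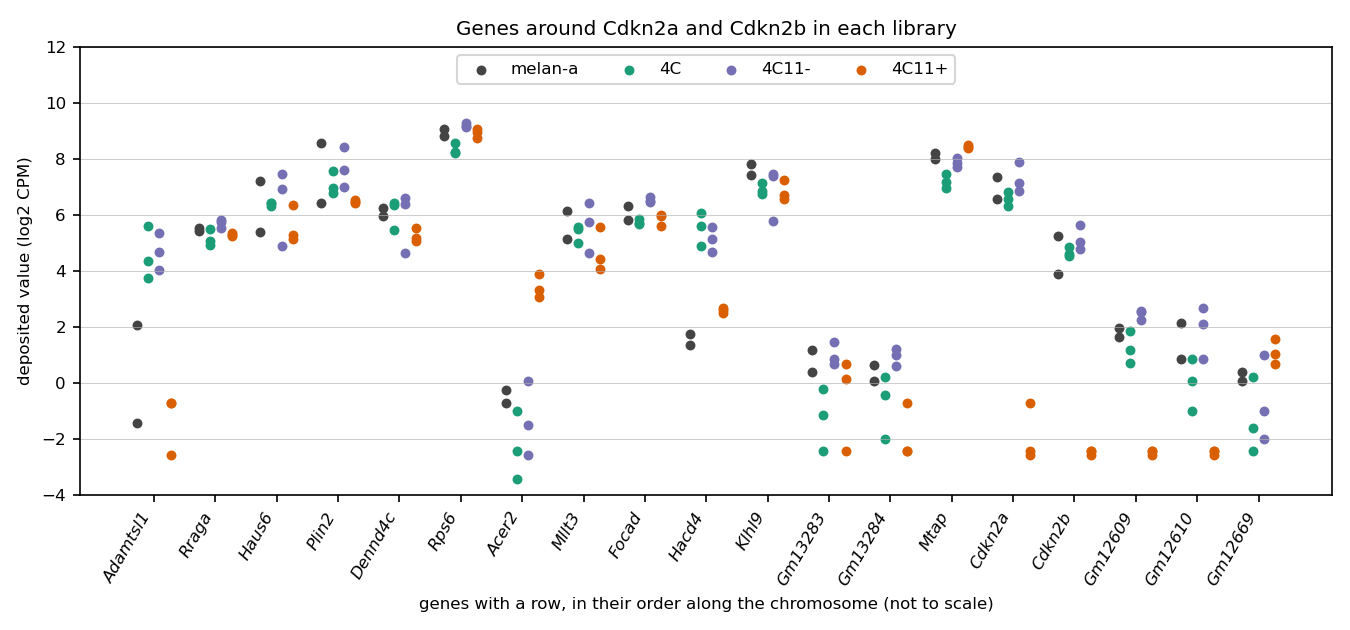
Deposited values (log2 CPM, vertical axis) of the 19 genes with values around Cdkn2a, in their order along the chromosome (horizontal axis, not to scale), with 1 point per library colored by line. The 4C11+ points of Cdkn2b, Gm12609 and Gm12610 lie at the floor, while those of Mtap lie between 8.40 and 8.49. Those of Cdkn2a lie at the floor except in replicate 1, which had 1 read (-0.70).

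Rb1, the gene of the RB pocket protein, was not called in any of the 7 comparisons by limma. Its value was 4.78 and 4.85 in melan-a, 3.86, 4.76 and 4.75 in 4C, 2.12, 4.06 and 4.57 in 4C11-, and 4.15, 3.74 and 4.54 in 4C11+. Replicate 1 of 4C11-, with 22 reads, lay far below all other libraries, and the derived lines overlapped. The most extreme difference was -1.24 for 4C11- against melan-a (95% interval -2.56 to 0.09, adjusted p = 0.223, limma), which was -0.51 without 4C11- replicate 1. The difference of 4C11+ from 4C11- changed sign without 4C11- replicate 1, from 0.56 to -0.17.

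Trp53, the p53 gene (ENSMUSG00000059552, chr11:69580359-69591873), was highest in the mesenchymal-like lines. Its value was 5.85 and 5.79 in melan-a, 6.73, 6.71 and 6.73 in 4C, 6.97, 6.65 and 6.82 in 4C11-, and 4.65, 4.75 and 6.26 in 4C11+. All 6 libraries of 4C and 4C11- lay above all 5 of melan-a and 4C11+, and 4C11+ replicate 3 stood apart from its line, above melan-a. The level in 4C11+ was 3.02-fold below that in 4C11- (log2 difference -1.60 ± 0.36, SE; limma adjusted p = 0.00575) and 2.83-fold below that in 4C (-1.50, adjusted p = 0.00773). Without 4C11+ replicate 3 these differences were -2.12 and -2.02. The contrast of morphologies gave 1.25 (2.37-fold higher in the mesenchymal-like lines, adjusted p = 0.00427, limma). Against melan-a the differences were 0.90 in 4C, 0.99 in 4C11- and -0.60 in 4C11+, none called. Without 4C11+ replicate 3 limma called all 3 of these, at adjusted p = 0.0149 for 4C, 0.00941 for 4C11- and 0.0093 for 4C11+, where the difference became -1.12.

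Mdm2, the ubiquitin ligase that targets p53 and is itself a p53 target (ENSMUSG00000020184, chr10:117688875-117710758), rose in 4C11+. Its value was 5.40 and 5.91 in melan-a, 5.68, 5.51 and 5.75 in 4C, 5.74, 5.58 and 5.25 in 4C11-, and 8.06, 8.14 and 7.87 in 4C11+. The 4C11+ libraries lay far above the 8 others, which overlapped line by line. The level in 4C11+ was 5.65-fold that in 4C11- (log2 difference 2.50 ± 0.22, SE; limma adjusted p = 7.05e-06), 5.18-fold that in 4C (adjusted p = 9.7e-06) and 5.14-fold that in melan-a (adjusted p = 8.58e-05). Differences among melan-a, 4C and 4C11- were -0.01, -0.13 and -0.14, none called by limma. The contrast of morphologies gave -1.25 (adjusted p = 0.000132, limma), with overlap between the groups.

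Levels of Mdm2 and Trp53 were compared within each library per kilobase of exon, as a log2 difference of Mdm2 minus Trp53. It was -0.78 and -0.21 in melan-a, -1.37, -1.53 and -1.31 in 4C, -1.57, -1.40 and -1.90 in 4C11-, and 3.08, 3.06 and 1.27 in 4C11+. Mdm2 was thus below Trp53 per kilobase in all 8 libraries of the other lines and above it in all 3 of 4C11+. On the same log2 scale per kilobase, the mean level of Cdkn1a was 5.64 in 4C11+, against 1.44, 1.2 and 1.46 in melan-a, 4C and 4C11-. Within a library it ranked 3 among the 10 genes in each 4C11+ library and 8 to 10 in every library of the other lines.

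**Figure D4:**
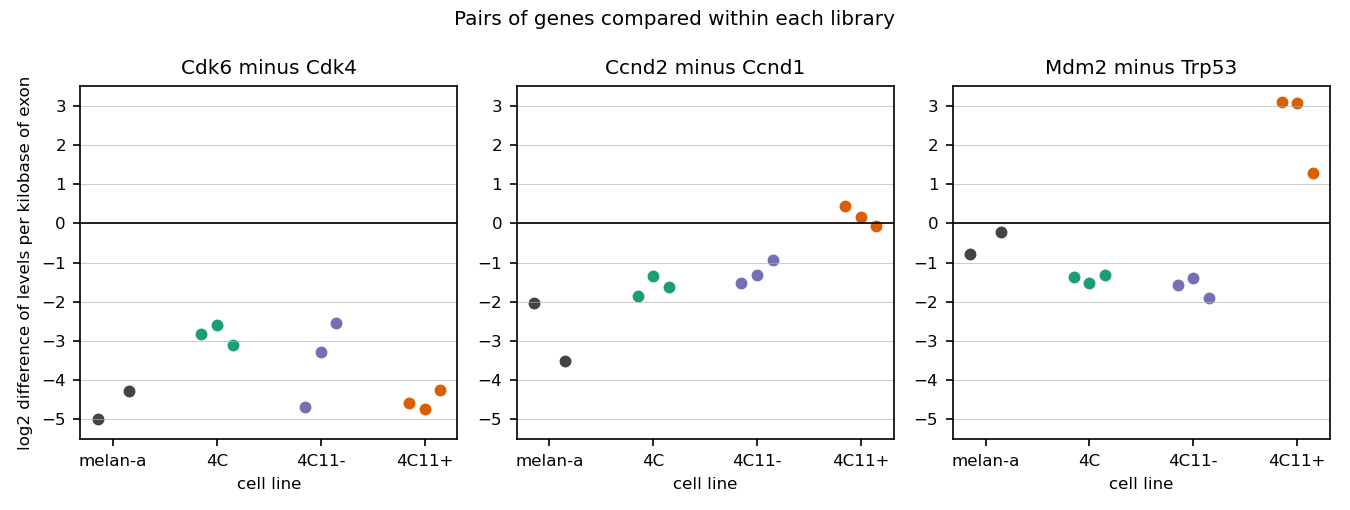
log2 difference of the levels per kilobase of exon (vertical axis) between the genes of 3 pairs, with 1 point per library and the lines along the horizontal axis. Mdm2 minus Trp53 is negative in melan-a, 4C and 4C11- and lies between 1.27 and 3.08 in 4C11+.

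Ccnd1 encodes cyclin D1, the D-type cyclin that activates Cdk4 and Cdk6. Its value was 8.67 and 9.16 in melan-a, 8.81, 8.21 and 8.68 in 4C, 9.25, 8.75 and 8.83 in 4C11-, and 7.75, 7.71 and 8.67 in 4C11+. Replicates 1 and 2 of 4C11+ were the lowest of all libraries, and replicate 3 lay within the range of 4C and just under the lowest 4C11- library. The level in 4C11+ was 1.87-fold below that in 4C11- (log2 difference -0.90 ± 0.29, SE; limma adjusted p = 0.0337). This call ended without 4C11- replicate 1 (-0.75, limma adjusted p = 0.088), replicate 2 (-1.0, 0.055) or replicate 3 (-0.95, 0.0553), and without 4C11+ replicate 1 (-0.75, 0.135) or replicate 2 (-0.73, 0.137), and with no trend (0.0645). The differences of 4C11+ from melan-a (-0.87, adjusted p = 0.0902, limma) and from 4C (-0.52, adjusted p = 0.189) were not called. Without 4C11+ replicate 3 limma called both, at -1.19 (adjusted p = 0.0193) and -0.84 (adjusted p = 0.0322).

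Ccnd2, the gene of another D-type cyclin, came level with Ccnd1 in 4C11+. The log2 difference per kilobase of Ccnd2 minus Ccnd1 within a library was -2.04 and -3.52 in melan-a, -1.84, -1.34 and -1.61 in 4C, -1.52, -1.32 and -0.94 in 4C11-, and 0.43, 0.15 and -0.06 in 4C11+. Ccnd1 was the higher of the pair in the 8 libraries of the other lines, and in 4C11+ the pair was close to equal. The Ccnd1 value was itself lower in 4C11+ than in 4C11- (-0.90, adjusted p = 0.0337, limma), a call that ended under several alternatives. The shift of the pair between these lines is therefore not that of Ccnd2 alone. The Ccnd2 value was higher in 4C11+ than in melan-a by 2.08 (adjusted p = 0.00102, limma) and higher in 4C11- than in melan-a by 1.54 (adjusted p = 0.00505, limma). The latter call ended in a fit of only the lines compared (limma adjusted p = 0.0624).

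Cdk4, the kinase partner of the D cyclins, was among the steadiest of the 10 genes. Its values ran from 8.34 to 8.42 in melan-a, from 8.0 to 8.24 in 4C, from 8.06 to 8.43 in 4C11- and from 8.21 to 8.66 in 4C11+. The lines overlapped except for 4C, which lay below melan-a, and limma called none of the 7 comparisons. The most extreme differences were 0.28 for 4C11+ against 4C (95% interval -0.13 to 0.70, adjusted p = 0.286, limma) and -0.28 for 4C against melan-a (-0.75 to 0.18, adjusted p = 0.447). Per kilobase the mean log2 level of Cdk4 in melan-a, 4C and 4C11- was 6.68, 6.40 and 6.60, beside 6.68, 6.33 and 6.71 for Ccnd1. The pair could not be ranked there, since their order differed between libraries of each line. In 4C11+ Cdk4, at 6.68, lay above Ccnd1 in every library, by 1.0, 1.11 and 0.53.

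Cdk6, the other kinase of the D cyclins, had its highest mean in 4C. Its value was 5.45 and 6.26 in melan-a, 7.52, 7.57 and 6.99 in 4C, 5.85, 7.23 and 7.63 in 4C11-, and 5.74, 5.65 and 6.52 in 4C11+. The 4C libraries lay above those of melan-a and 4C11+, as did 4C11- replicates 2 and 3, while 4C11- replicate 1 lay among melan-a and 4C11+. The highest single library was 4C11- replicate 3, and the difference of 4C11- from 4C was -0.46 (adjusted p = 0.699, limma), or 0.07 without 4C11- replicate 1. The level in 4C11+ was 2.62-fold below that in 4C (log2 difference -1.39 ± 0.43, SE; limma adjusted p = 0.0293). This call ended without 4C replicate 1 (-1.31, limma adjusted p = 0.0764) or replicate 2 (-1.29, 0.0979), and without 4C11+ replicate 1 (-1.27, 0.101) or replicate 2 (-1.23, 0.109), and with no trend (0.0501). The contrast of morphologies gave 1.22 (adjusted p = 0.0144, limma), and 1.01 without melan-a replicate 2 (adjusted p = 0.0612, limma). The differences of 4C from melan-a (1.5, adjusted p = 0.0583, limma), of 4C11- from melan-a (1.04, 0.198) and of 4C11+ from 4C11- (-0.93, 0.126) were not called. Without 4C11- replicate 1 limma called all 3, the 4C difference unmoved (adjusted p = 0.00988) and the others at 1.57 (0.0153) and -1.46 (0.00768). The 4C difference from melan-a was also called without 4C11- replicate 3 (adjusted p = 0.0412, limma), with a replicate block (1.69, 0.032) and in a fit of only the lines compared (0.0338). Per kilobase Cdk6 lay below Cdk4 in every library, by a log2 difference of -4.99 and -4.27 in melan-a, -2.82, -2.60 and -3.11 in 4C, -4.69, -3.29 and -2.54 in 4C11-, and -4.58, -4.74 and -4.24 in 4C11+.

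Other G1/S genes were read from a list of 28 inhibitors, cyclins, kinases, RB relatives, E2F and DP factors and ubiquitin ligase parts, of which 27 had values (Cdkn1c did not). In 4C11+ against 4C11-, limma called 3 of the 27 higher and 7 lower, beside 15.6% and 15.4% of all genes, and their median log2 difference was -0.18 beside 0.12 for all genes, whether Cdkn2b stands at its fitted value or at its bound. Among the called genes the strongest falls after Cdkn2a and Cdkn2b were those of E2f7, an atypical E2F repressor (-1.86, adjusted p = 0.00456, limma), Tfdp1, the DP1 partner of E2F factors (-1.76, adjusted p = 0.00159), and Skp2, which marks p27 for degradation (-1.56, adjusted p = 0.00533), whose difference was -2.24 without both 4C11- replicate 1 and 4C11+ replicate 3. The counts higher and lower were 5 and 5 against 4C, where E2f2 (1.97) and Cdk2 (1.31) rose, beside 17.1% and 14.6% of all genes. They were 5 and 2 against melan-a, where Ccnd2 and E2f6 (1.58) rose, beside 8.39% and 7.52%. In 4C against melan-a 2 rose and 1 fell (7.64% and 7.55% of all genes), in 4C11- against melan-a 2 rose and 0 fell (7.55% and 6.05%), and in the contrast of morphologies 7 were higher and 2 lower in the mesenchymal-like lines (14.3% and 15.3%). In 4C11- against 4C limma called 0 of the 27, while 1.67% of all genes were called. An unadjusted p under 0.05 was found there for 5 of the 27, beside 1926 of all genes. Without that pair of libraries the counts became 2 and 8 in 4C11+ against 4C11- (18.8% and 16.9% of all genes), 5 and 7 against 4C (21.2% and 18.7%) and 4 and 4 against melan-a (12.1% and 11.5%). They became 5 and 2 in 4C against melan-a (9.59% and 10%), 5 and 0 in 4C11- against melan-a (7.32% and 7.77%), and 10 and 2 in the contrast (17.5% and 19.7%). With single libraries left out the largest moves were to 7 and 0 in 4C11- against melan-a without melan-a replicate 3 (11.8% of all genes called) and to 0 and 5 in 4C11+ against 4C11- without 4C11- replicate 2 (23.1%).

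Cdkn2a and Cdkn2b were also called in the contrast of morphologies, higher in the mesenchymal-like lines (adjusted p = 2.42e-06 and 1.38e-06, limma). The libraries of the morphologies overlapped for both, as melan-a lay near 4C and 4C11- and only 4C11+ was low. The repressor E2f7 was also lower in 4C11+ than in 4C (-1.67, adjusted p = 0.0079, limma) and higher in the mesenchymal-like lines (1.53, 0.00237). E2f6 was also higher than in melan-a in 4C (1.3, adjusted p = 0.00459, limma) and in 4C11- (1.18, 0.00914), and the latter call ended without melan-a replicate 2 (0.94, 0.0699) and in a fit of only the lines compared (0.0966). Cdc25a, a phosphatase that activates Cdk2, was higher in 4C11+ than in melan-a (1.26, adjusted p = 0.0119, limma), and not called without melan-a replicate 2 (1.17, 0.073). E2f2 was lower in 4C than in melan-a (-1.89, adjusted p = 0.0389, limma), where the difference was -2.91 without melan-a replicate 2 and -0.88 without replicate 3 (0.314). That call also ended without 4C replicate 2 or 3, 4C11- replicate 2 or 4C11+ replicate 1 or 2 (0.0555 to 0.117), with no trend (0.0578) and in a fit of only the lines compared (0.112). In the contrast E2f2 was -1.21 (adjusted p = 0.0281, limma), and not called without melan-a replicate 3, 4C replicate 2 or 3, 4C11- replicate 2 or 3 or 4C11+ replicate 3 (0.0529 to 0.131). Rbl1 was higher in the mesenchymal-like lines by 1.47 (adjusted p = 0.00718, limma). Skp1a, a ubiquitin ligase part, was higher in 4C than in melan-a (0.80, adjusted p = 0.0276, limma), a call that ended without melan-a replicate 2, 4C replicate 2 or 3 or 4C11+ replicate 1 (0.0523 to 0.152), with no trend (0.0671) and in a fit of only the lines compared (0.0953).

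Regulators and relatives of p53 were read from a list of 20 genes. Of these 18 had values (Trp63 and Trp73 did not), and in 4C11+ against 4C11- limma called 1 higher and 1 lower, beside 15.6% and 15.4% of all genes, with a median of -0.09. Hipk2, a kinase that phosphorylates p53, was 5.89 and 5.96 in melan-a, 5.0, 4.87 and 4.69 in 4C, 4.25, 4.41 and 4.59 in 4C11-, and 5.59, 5.56 and 5.75 in 4C11+. It was thus lowest in the mesenchymal-like lines, which lay below all other libraries. The difference of 4C11+ from 4C11- was 1.22 (adjusted p = 0.00125, limma) and that from melan-a was -0.29 (0.452, not called). Against melan-a it fell by 1.07 in 4C (adjusted p = 0.0104, limma) and by 1.51 in 4C11- (0.00121), and the contrast of morphologies gave -1.14 (0.00021). The ribosomal protein gene Rpl5 fell by 0.57 (adjusted p = 0.0225, limma), and this call ended without 4C11- replicate 2 (0.0755) or 3 (0.0697) or any 1 of 4C11+ replicates 1 to 3 (0.0925, 0.0566 and 0.0532), and with no trend (0.0653). The counts higher and lower were 1 and 1 in 4C11+ against 4C, where 31.7% of all genes were called, 2 and 1 against melan-a (15.9%), 2 and 2 in 4C against melan-a (15.2%), 2 and 1 in 4C11- against melan-a (13.6%), and 2 and 1 in the contrast of morphologies (29.7%). Without both 4C11- replicate 1 and 4C11+ replicate 3 they became 3 and 6 in 4C11+ against 4C11- (18.8% and 16.9% of all genes), 3 and 5 against 4C (21.2% and 18.7%), 3 and 2 against melan-a (12.1% and 11.5%), and 4 and 2 in the contrast (17.5% and 19.7%), with the counts for 4C and 4C11- against melan-a unmoved (9.59% and 10%, 7.32% and 7.77%). Without 4C11+ replicate 3 alone they became 2 and 2 in 4C11+ against 4C11- (14.9% and 14.4%) and against 4C (17.2% and 14.2%). Against melan-a they became 3 and 2 (8.58% and 7.73%), and in the contrast 2 and 2 (14.1% and 15.3%). Without 4C11- replicate 1 alone they became 2 and 2 in 4C11+ against 4C (19.9% and 17.4%) and 3 and 1 in the contrast (15.8% and 18.2%). Ppm1d, the phosphatase that opposes p53 signaling, was higher than in melan-a by 1.61 in 4C (adjusted p = 0.00177, limma), 1.25 in 4C11- (0.00967) and 1.01 in 4C11+ (0.0277). The 4C11- call ended without melan-a replicate 2 (1.06, limma adjusted p = 0.0637), and the 4C11+ call without melan-a replicate 2 (0.83, 0.166) or 4C11+ replicate 1 (1.01, 0.0879) or 2 (1.0, 0.0862). Both also ended in a fit of only the lines compared (limma adjusted p = 0.0937 and 0.0734). In 4C11- against 4C, where 1.67% of all genes were called, limma called 0 of the 18. An unadjusted p under 0.05 was found there for 1 of the 18, beside 1926 of all genes.

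Sirt1, a deacetylase that acts on p53, was lowest in melan-a. Its value was 2.80 and 3.08 in melan-a, 4.85, 4.45 and 4.08 in 4C, 4.23, 4.78 and 5.07 in 4C11-, and 4.59, 4.68 and 4.48 in 4C11+, so both melan-a libraries lay below the 9 others. The differences from melan-a were 1.52 in 4C (adjusted p = 0.00966, limma), 1.75 in 4C11- (0.0042) and 1.65 in 4C11+ (0.0075). Without melan-a replicate 2 the 4C call (1.38, limma adjusted p = 0.0551) and the 4C11+ call (1.51, 0.0524) ended, and the 4C11- call ended in a fit of only the lines compared (0.0631). In the contrast of morphologies the difference was 0.81 for Sirt1 (adjusted p = 0.0175, limma), 0.74 without melan-a replicate 2 (0.0517), and 0.92 for Ppm1d (0.00257). Chek2, a checkpoint kinase, was lower in 4C11+ than in melan-a (-1.56, adjusted p = 0.0444, limma), a call that ended without any 1 of 9 of the 11 libraries (0.0534 to 0.179), 4C11- replicate 1 and 4C11+ replicate 3 being the exceptions. It also ended with no trend (0.0671) and in a fit of only the lines compared (0.133). Against 4C, Trp53bp1, which encodes a p53-binding repair protein, was lower in 4C11+ (-0.86, adjusted p = 0.022, limma) and Hipk2 higher (0.78, 0.0161). Both calls ended without 4C replicate 2 or 3 or 4C11+ replicate 1, and that of Trp53bp1 also without 4C11+ replicate 2 (limma adjusted p = 0.0632 to 0.106 for Trp53bp1 and 0.0538 to 0.063 for Hipk2). The ribosomal protein gene Rpl11 was lower in 4C than in melan-a (-0.74, adjusted p = 0.0307, limma), and not called without melan-a replicate 2 or 3, 4C replicate 2 or 3, 4C11- replicate 2 or 4C11+ replicate 1 or 2 (0.0538 to 0.127), with no trend (0.0796) or in a fit of only the lines compared (0.142).

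Targets of p53 other than Cdkn1a and Mdm2 rose more often than they fell in 4C11+. Of 35 listed genes 32 had values (Eda2r, Pmaip1 and Perp did not), and in 4C11+ against 4C11- limma called 12 higher and 4 lower, beside 15.6% and 15.4% of all genes, with a median of 0.39 beside 0.12. The counts were 14 and 3 against 4C, beside 17.1% and 14.6% of all genes, with a median of 0.73 beside 0.08. They were 9 and 2 against melan-a, beside 8.39% and 7.52%, with a median of 0.90 beside 0.03. In 4C against melan-a 4 rose and 3 fell (7.64% and 7.55% of all genes, list median -0.08), and in 4C11- against melan-a 4 rose and 1 fell (7.55% and 6.05%, list median 0.32). In 4C11- against 4C 2 rose and 0 fell (1.26% and 0.406%, list median 0.32). In the contrast of morphologies 5 were higher and 10 lower in the mesenchymal-like lines (14.3% and 15.3%, list median -0.48). Without both 4C11- replicate 1 and 4C11+ replicate 3 the counts became 13 and 4 in 4C11+ against 4C11- (18.8% and 16.9% of all genes), 15 and 3 against 4C (21.2% and 18.7%) and 12 and 2 against melan-a (12.1% and 11.5%). They became 4 and 14 in the contrast (17.5% and 19.7%), 4 and 4 in 4C against melan-a (9.59% and 10%), 3 and 1 in 4C11- against melan-a (7.32% and 7.77%), and 0 and 0 in 4C11- against 4C (0.827% and 0.497%). The pair that rose in 4C11- against 4C were Ptp4a3 (2.81, adjusted p = 0.0431, limma) and Dram1 (1.72, adjusted p = 0.0429), both higher in 4C11-. The Dram1 call ended without any 1 of the 9 libraries of 4C, 4C11- and 4C11+ (limma adjusted p = 0.0557 to 0.212). The Ptp4a3 call ended without any 1 of the same libraries except 4C11- replicate 3 (limma adjusted p = 0.0729 to 0.184), without which the difference was 3.56. Both calls also ended with the filter at a mean log2 of 1 (limma adjusted p = 0.0506 for Dram1 and 0.0588 for Ptp4a3) and in a fit of only the lines compared (0.0755 and 0.123), and that of Ptp4a3 with no trend (0.0619).

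Ccng1, which encodes the p53-induced cyclin G1, was 9.24, 9.26 and 9.40 in 4C11+ and 3.68, 5.60 and 6.07 in 4C11-. It was 4.94 and 5.77 in melan-a and 5.92, 5.90 and 5.88 in 4C, so 4C11+ stood clear of every other library and 4C11- replicate 1 was the lowest. The difference of 4C11+ from 4C11- was 4.18 ± 0.48 (18.2-fold, adjusted p = 5.84e-05, limma), and 3.47 without 4C11- replicate 1. Zmat3, an RNA-binding p53 target, was 7.33, 7.30 and 6.79 in 4C11+ and 4.35, 4.26 and 4.36 in 4C11-, a difference of 2.82 (7.06-fold, adjusted p = 4.71e-06, limma). Ptp4a3, a phosphatase gene, was 6.41, 6.55 and 6.32 in 4C11+ and 4.12, 3.41 and 1.51 in 4C11-, a difference of 3.41 (adjusted p = 0.00134, limma) that was 2.66 without 4C11- replicate 3 and 4.01 without both 4C11- replicate 1 and 4C11+ replicate 3. For all 3 genes the 4C11+ libraries lay above every 4C11- library. The other 9 targets called higher, named after their values were seen, were Trp53inp1, Bbc3, Tigar, Aen, Psrc1, Rps27l, Phlda3, Ei24 and Bax.

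Some p53 targets went the opposite way. Dram1, an autophagy gene, was 0.63, 0.15 and 0.69 in 4C11+ and 4.83, 4.40 and 4.65 in 4C11-, a difference of -4.13 (adjusted p = 7.78e-06, limma). Fas, the death receptor gene, was 0.63, -2.44 and -1.16 in 4C11+, where it had 5, 0 and 1 reads, and 2.06, 2.41 and 1.72 in 4C11-. The difference was -3.05 (adjusted p = 0.00571, limma), and it was -3.86 without 4C11+ replicate 1 and -2.32 without replicate 2 (adjusted p = 0.0222, limma). Both genes were also near the detection limit in melan-a, where Fas had 0 reads and Dram1 had 5 in each library, so here melan-a and 4C11+ were alike in being low. Btg2 and Ddb2 were the other targets called lower.

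Fas and Dram1 were called higher in both mesenchymal-like lines than in melan-a. With a floor of 3 reads in each melan-a library, Fas was at least 9.19-fold higher in 4C (limma adjusted p = 0.00033) and at least 5.49-fold higher in 4C11- (0.00102). Dram1 was higher by 2.67 in 4C (adjusted p = 0.000917, limma) and by 4.39 in 4C11- (2.02e-05), and in 4C11+ it was lower than in 4C by 2.41 (0.000443). Fas was also lower in 4C11+ than in 4C (-3.79, adjusted p = 0.00139, limma), by -4.60 without 4C11+ replicate 1 and -3.07 without replicate 2. In the contrast of morphologies Dram1 (3.4, adjusted p = 2.42e-06, limma), Btg2 (2.15, 0.00538) and Fas (5.15e-05) were higher in the mesenchymal-like lines, and Ptp4a3 (-2.29, 0.0025) and Ccng1 (-1.82, 0.00262) were lower.

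Ptp4a3, Ccng1, Zmat3 and Aen, an apoptosis nuclease, were the targets that rose most in 4C11+ against melan-a, by 5.04, 3.94, 2.34 and 2.38 (adjusted p = 0.000564, 0.000658, 0.000166 and 0.00359, limma). Without melan-a replicate 2 the differences of Ptp4a3 and Aen were 4.28 and 1.61, and without replicate 3 they were 5.79 and 3.15. Ddb2, a DNA repair gene, was lower in 4C11+ than in melan-a by 2.65 (adjusted p = 0.00307, limma). Against 4C, Ptp4a3 was higher by 6.21 (adjusted p = 1.37e-05, limma) and Ccng1 by 3.4 (0.00026). Gdf15, a secreted stress factor, was also called higher than in 4C (adjusted p = 0.0162, limma) but had few reads, 6, 2 and 9 in 4C11+ and 0, 0 and 1 in 4C, and the call ended without 4C replicate 2 or 4C11+ replicate 1 or 3 (0.0509 to 0.0581). Plk2, a stress-induced kinase, was lower than in melan-a in 4C (-1.96, adjusted p = 0.00234, limma) and in 4C11- (-1.29, 0.0287). The latter call ended without melan-a replicate 2 or 4C11- replicate 2 or 3 (0.0738 to 0.175) and in a fit of only the lines compared (0.15). Btg2 was higher in 4C11- than in melan-a by 2.69 (adjusted p = 0.0274, limma), by 3.5 without melan-a replicate 2 and by 1.88 without replicate 3 (0.196). That call also ended without 4C11- replicate 1 (0.0628) or 2 (0.077) and in a fit of only the lines compared (0.0524). Ak1, an adenylate kinase gene, was higher in 4C than in melan-a by 2.10 (adjusted p = 0.0317, limma), by 3.47 without melan-a replicate 2 and by 0.74 without replicate 3 (0.201), and not called without any 1 of the 4C libraries (0.0632 to 0.0864), with no trend (0.0577) or in a fit of only the lines compared (0.113).

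**Figure D5:**
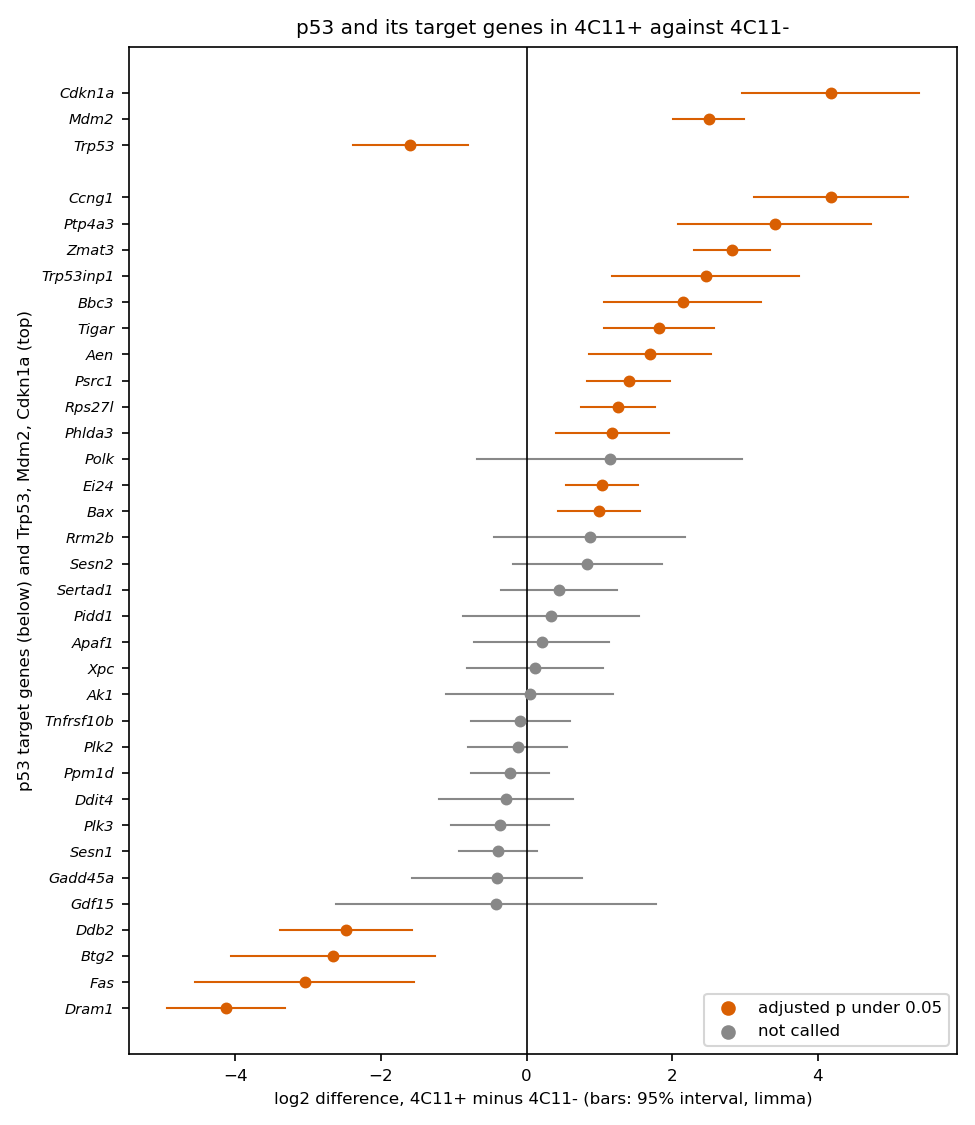
log2 difference of 4C11+ minus 4C11- (horizontal axis) with its 95% interval from limma for the 32 listed p53 targets with values and, at the top, Trp53, Mdm2 and Cdkn1a; colored points have an adjusted p under 0.05. Ccng1 (4.18) lies beside Cdkn1a (4.18), and Dram1 (-4.13) and Trp53 (-1.60) lie on the other side of 0.

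S phase genes driven by E2F were read from a list of 26, all of which had values. Their mean log2 level was 5.67 and 7.03 in melan-a, 7.24, 6.90 and 6.35 in 4C, 6.87, 7.18 and 7.32 in 4C11-, and 6.56, 6.58 and 7.20 in 4C11+. The lines overlapped, with melan-a replicate 2 below all other libraries. In 4C11+ against 4C11- limma called 0 higher and 2 lower, beside 15.6% and 15.4% of all genes, with a median of -0.26. They were Rbl1, which encodes the pocket protein p107 (-1.45, adjusted p = 0.0323, limma), and Orc1, of the origin recognition complex (-1.08, adjusted p = 0.0329). Both calls ended without 4C11- replicate 2 (limma adjusted p = 0.105 for Rbl1 and 0.0703 for Orc1) or 3 (0.109 and 0.103) and without 4C11+ replicate 1 (0.0984 and 0.118) or 2 (0.126 and 0.103), and that of Rbl1 ended with no trend (0.0535). Counts higher and lower were 1 and 0 in 4C against melan-a, where 15.2% of all genes were called, 2 and 0 in 4C11- against melan-a (13.6%), 3 and 0 in 4C11+ against melan-a (15.9%), and 4 and 0 in the contrast of morphologies (29.7%). Without both 4C11- replicate 1 and 4C11+ replicate 3 they became 0 and 6 in 4C11+ against 4C11-, where Rbl1 differed by -2.23 and 18.8% and 16.9% of all genes were called. They became 0 and 3 against 4C (21.2% and 18.7%), 1 and 1 against melan-a (12.1% and 11.5%), 2 and 0 in 4C against melan-a (9.59% and 10%), 3 and 0 in 4C11- against melan-a (7.32% and 7.77%), and 5 and 0 in the contrast (17.5% and 19.7%). Without 4C11+ replicate 3 alone they became 0 and 5 in 4C11+ against 4C11- (14.9% and 14.4%) and 1 and 0 against melan-a (8.58% and 7.73%). Without 4C11- replicate 1 alone they became 4 and 0 in 4C11- against melan-a (7.13% and 7.57%). Without melan-a replicate 3 they became 6 and 0 in 4C against melan-a (13.0% of all genes called), 13 and 0 in 4C11- against melan-a (11.8%), 6 and 0 in 4C11+ against melan-a (17.6%) and 11 and 0 in the contrast (26.2%). Without melan-a replicate 2 they became 0 and 0 (13.1%), 1 and 0 (12.3%), 0 and 0 (8.3%) and 2 and 0 (28.7%). For either tumor line against 4C limma called 0 of the 26, beside 1.67% of all genes for 4C11- and 31.7% for 4C11+. Unadjusted p was under 0.05 for 3 of the 26 in 4C11- against 4C, beside 1926 of all genes. It was so for 2 of the 26 in 4C11+ against 4C, beside 6022 of all genes. Mcm6, a subunit of the replicative helicase, was higher than melan-a by 1.26 in 4C, 1.63 in 4C11- and 1.23 in 4C11+ (adjusted p = 0.00684, 0.00134 and 0.0101, limma). Without melan-a replicate 2 the 4C call (0.94, limma adjusted p = 0.0635) and the 4C11+ call (0.90, 0.0945) ended, and the 4C call also ended in a fit of only the lines compared (0.0585).

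Of the 3 E2F targets called against melan-a, Mcm6 lost the fewest calls when single libraries were left out. Mcm3, another helicase subunit, was higher than in melan-a by 1.36 in 4C11- (adjusted p = 0.0188, limma) and by 1.12 in 4C11+ (0.0439). The 4C11- call ended without melan-a replicate 2 (1.03, limma adjusted p = 0.143) or 4C11- replicate 2 (0.0513). The 4C11+ call ended without melan-a replicate 2 (0.78, limma adjusted p = 0.284), 4C replicate 2, 4C11- replicate 2 or 3 or any 1 of the 4C11+ libraries (0.054 to 0.109) and with no trend (0.0807). Rrm2, a subunit of ribonucleotide reductase, was higher in 4C11+ than in melan-a by 1.91 (adjusted p = 0.0375, limma), by 2.96 without melan-a replicate 3 and by 0.87 without replicate 2 (0.345). That call also ended without 4C replicate 2, 4C11- replicate 2 or any 1 of the 4C11+ libraries (0.0556 to 0.0981), with no trend (0.0663) and in a fit of only the lines compared (0.0989). In the contrast of morphologies Rbl1, Cdc6, which loads the helicase (1.31, adjusted p = 0.0372, limma), Mcm6 (0.84, 0.00384) and E2f1 (0.75, 0.0461) were higher in the mesenchymal-like lines. The Cdc6 call ended without any 1 of 7 libraries (limma adjusted p = 0.0611 to 0.167; melan-a replicate 3, 4C replicate 3, 4C11- replicate 1 and 4C11+ replicate 3 were the exceptions) and with no trend (0.0597). The E2f1 call ended without any 1 of 9 libraries (limma adjusted p = 0.0517 to 0.185; melan-a replicate 3 and 4C11- replicate 2 were the exceptions), with no trend (0.0636) and with each library shifted (0.0617).

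The genes whose values ran most alike with each of the 10 over the 11 libraries were found by Pearson's r among 10353 genes, as a description. For Cdkn1a they were Mgat5 (r = 0.977), BC031181 (0.975) and Paqr7 (0.967), and for Mdm2 they were Ttc7b (0.983), Btbd10 (0.982) and Pmel (0.981), the last a melanocyte marker. For Trp53 they were Cdk5rap1 (0.989), Hibch (0.982) and Aifm1 (0.978), and for Rb1 Nktr (0.981), Wnk1 (0.978) and Gm43980 (0.977). Cdkn1b ran with Vwa8 (0.930), Vamp1 (0.928) and Rubcn (0.924), Cdkn2c with Gm28438 (0.933), Tead4 (0.915) and Tle1 (0.902), and Cdkn2d with Hax1 (0.953), Tepsin (0.952) and Iqgap3 (0.947). Ccnd1 ran with Taf6l (0.946), Dnajc11 (0.916) and Mlkl (0.901), Cdk4 with Tufm (0.895), Pfkl (0.886) and Tmub1 (0.865), and Cdk6 with Taf1 (0.940), Crnkl1 (0.940) and Piga (0.938). The libraries fall into 4 lines, so each r mixes differences between and within lines.

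Parts of 5 of the 10 genes overlap a gene on the opposite strand: Cdk4 overlaps Tspan31 by 641 bases, Ccnd1 overlaps LTO1 by 1100, Rb1 overlaps Rcbtb2 by 488 and Lpar6 by 408, Cdk6 overlaps Gm17590 by 368, and Cdkn1a overlaps AC167363.2 by 273. The strand setting of the read counting was not stated, so reads from the overlapping genes could not be told apart there. Cdkn1b, Cdkn2a to Cdkn2d, Trp53 and Mdm2 have no such overlap. Among the listed genes Trp53bp1 had the longest, of 2130 bases with Tubgcp4. Cdk2 overlaps Pmel by 34 bases on the opposite strand, and Pmel was 11.50 higher in 4C11+ than in 4C (adjusted p = 3.39e-08, limma). Whether reads of Pmel took part in the rise of Cdk2 was not tested.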

How the data were processed

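Total RNA was depleted of ribosomal RNA and sequenced as stranded libraries. The authors trimmed reads with Trimmomatic, aligned them with STAR to GRCm38 with Ensembl release 90, assigned them to genes with Rsubread, kept a gene where 4 or more libraries reached 1 CPM, and normalized with voom. The deposited values are given as log2 CPM (read counts scaled to a common library size). The 11 libraries share 1 highest value, as after quantile normalization, a step that the sources do not name; replicate 1 of melan-a has no deposited values. Reads of low values were recovered from the order of the distinct values in each library, and the depth from the value at 40 reads, which gave 3.5 to 7.42 M reads. These depths are approximate, as they move with the read count at which they are taken. Folds against a line with 0 reads in every library are bounds at 3 reads in each library. For Cdkn2a, with 1 read in 4C11+, the ratio of the mean deposited level to that read over the summed depth of 4C11+ was taken, with an exact Poisson interval of the read (SciPy 1.17.1).

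A mean for each line was fitted over all 11 libraries with limma 3.58.1 (R 4.3.3) with a mean-variance trend, in 7 comparisons, with Benjamini-Hochberg adjustment over 14272 genes and a threshold of 0.05. Where a line is left with 1 library, that library is assumed to vary like the other lines. Tables and plots used Python 3.11.15, NumPy 2.4.6, pandas 2.3.3 and matplotlib 3.10.9. The steps were tested on simulated data for 4C11+ against 4C11-. Of 100 genes given a log2 change of 1, 23 were recovered, and of 100 given a change of 2, 61 were. All other genes were simulated without a difference between lines, whereas 31.1% of all genes were called in the data. The adjustment is stricter where few genes differ, so these rates are not those of the data. In the simulated setting differences of these sizes could go uncalled.

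Genes are named by rule: the 10 members in every comparison, Cdkn2a and Cdkn2b, up to 5 called genes with the largest log2 difference of each list in each comparison, cell type markers, and for each member the 3 genes with the highest correlation among those with a mean log2 value of at least 2. The lists were other G1/S genes, p53 regulators, p53 targets, E2F targets, and melanocyte, fibroblast, keratinocyte and immune markers. A gene in several lists was counted in each. The members and lists were chosen with earlier results of these data known. Alternatives were a further quantile normalization, a shift of each library, a filter at a mean log2 of 1, no trend, a robust fit, a fit of only the lines compared, a replicate block, and leaving out each library.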

Additional observations from a re-analysis of the deposited data

How the results depend on the processing

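For the 10 genes, 21 of 70 differences were called, and 14 of these were called under every alternative. Of 1320 alternative values 1237 kept their direction and side of the threshold, 28 lost a call, 21 gained one and 34 changed sign, and 0 of those 34 were of called differences. A further quantile normalization moved a value by at most 0.389.

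For genes called, 4C11- against 4C, the count was 238. It was 125 with the filter at a mean log2 of 1, 143 with only the lines compared, and 93 to 320 when libraries were left out (93 without 4C replicate 2, 113 without 4C replicate 3, 97 without 4C11- replicate 2, 155 without 4C11+ replicate 1). For genes called, 4C11- against melan-a, it was 1940, and 843 with only the lines compared. For genes called, 4C11+ against melan-a, it was 2270, 1446 with only the lines compared, and 1089 to 3365 when libraries were left out. The lowest of these came without 4C11+ replicate 1, beside 1145 without 4C11+ replicate 2 and 1185 without melan-a replicate 2, and the highest without both 4C11- replicate 1 and 4C11+ replicate 3, an alternative chosen after seeing the data. The cause was not tested. All other counts over all genes stayed within 1.5 times.

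Differences that changed sign when libraries were left out, none called, had these ranges. In 4C against melan-a they ran from -1.42 to 0.94 for Cdkn1a, from -0.26 to 0.24 for Mdm2 and from -0.59 to 0.78 for Cdkn2b. In 4C11- against 4C they ran from -0.24 to 0.62 for Cdkn1a, from -0.23 to 0.0098 for Mdm2 and from -0.82 to 0.065 for Cdk6. In 4C11- against melan-a they ran from -1.16 to 1.2 for Cdkn1a, from -0.39 to 0.12 for Mdm2, from -0.22 to 0.27 for Ccnd1, from -0.15 to 0.036 for Cdk4, from -0.059 to 0.71 for Cdkn2a and from -0.11 to 1.26 for Cdkn2b. In 4C11+ against 4C11- they ran from -0.37 to 1.06 for Rb1 and from -0.054 to 0.17 for Cdk4. In 4C11+ against melan-a they ran from -0.070 to 0.0070 for Cdkn2c, from -0.14 to 0.088 for Cdk4 and from -0.29 to 0.52 for Cdk6. Cdkn1b ran from -0.29 to 0.055 in 4C11+ against 4C, and Rb1 from -0.71 to 0.0021 in the contrast of morphologies. The cause was not tested.

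With a replicate block, Cdkn1a (-0.19) and Ccnd1 (-0.016) in 4C11- against melan-a and Cdk4 (-0.015) in 4C11+ against melan-a changed sign. In 4C against melan-a the Cdkn1b call was lost (-0.86, limma adjusted p = 0.0526) and Cdk6 was called (1.69, 0.032), so 1 of the 10 genes was higher and 0 lower, beside 15.9% of all genes called. In 4C11+ against melan-a calls were lost for Ppm1d (0.0558), Chek2 (0.0568), Mcm3 (0.0832) and Rrm2 (0.0538), so the counts higher and lower were 1 and 0 for both the p53 regulators and the E2F targets, beside 13.5% of all genes called. Dram1 and Ptp4a3 lost their calls in 4C11- against 4C (0.0551 each). Under the replicate block the count was 254 for genes called, 4C11- against 4C, and 1930 for genes called, 4C11+ against melan-a. After removing line means, libraries of the same number in different lines correlated at -0.226 to 0.388, over 0.1 in 8 of 15 pairs, and those of other numbers at -0.416 to 0.340, over 0.1 in 11 of 30. The 3 pairs of replicate 1 gave 0.245, 0.152 and 0.212. Depths of 3.5 to 7.42 M reads limit low values, and each line had 2 or 3 libraries.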
